A study of Mus musculus with 18 samples.

Results

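c-Maf, the transcription factor encoded by Maf, was followed here together with the 7 genes of its closest bZIP relatives and dimer partners. They are the small Maf genes Mafk, Mafg and Maff, the BTB-domain repressor genes Bach1 and Bach2, and the cap'n'collar (CNC) activator genes Nfe2l1 and Nfe2l2. These 8 genes were chosen by name, with their Entrez identifiers matched to mouse symbols, out of 27179 genes listed in each library. They were chosen with earlier results of these data known. All 8 passed the filter on low counts. RNA was measured in mouse CD4 T cells that were activated for 3.5 days on plates coated with antibodies to CD3 and CD28, then sorted. All mice carried 2 floxed Maf alleles (Maf fl/fl). The 18 libraries form 6 groups of 3, labelled CD4Cre-positive or CD4Cre-negative and cultured under a treatment named Tfh5, Tfh1 or TfhA. CD4Cre expresses the Cre recombinase from Cd4 regulatory sequence and so acts in T cells. The sources used here do not give what each treatment contained, which part of Maf is floxed, or the age of the mice. The series title names TGF-β and c-Maf in the choice between TFH and TH17 fates.

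Proteins of this family bind DNA as pairs. Large Maf proteins such as c-Maf carry an activation domain and pair with each other, and c-Maf is known in T cells for driving Il4, Il10, Il21 and Icos and for limiting Il2. Small Maf proteins lack an activation domain, and they serve as the obligate partners of the BACH and CNC proteins, so that the partner decides whether a site is repressed or activated. BACH2 is known as a repressor that holds back effector differentiation in T cells and plasma cell differentiation in B cells, BACH1 as a heme-sensing repressor of Hmox1, NRF2 (Nfe2l2) as the activator of the oxidative stress response, and NRF1 (Nfe2l1) as the activator of proteasome genes. Small Maf pairs with CNC proteins read the antioxidant response element (ARE), and Maf pairs read the longer Maf recognition element (MARE).

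The ARE core is shown here because pairs of these proteins read it and windows near 4 of their own genes hold its letters. Promoter windows of 300 bases, reaching from 250 before to 50 after each start site, were available from RefSeq (GRCm38.p6) for 7 of the 8 genes. The core TGACNNNGC, searched on both strands, lay in a window of 4 of these 7 genes, against 14.0% of the 27025 genes with a window. Counted by window, it lay in 4 of their 13, against 12.4% of all 32851 windows. A gene with more windows has more room for a match. The matches are printed 5′ to 3′ on the strand that carries the core, with the core in capitals and 10 bases on each side.
Nfe2l2, chr2:75704885-75704913, minus strand: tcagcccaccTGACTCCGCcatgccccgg
Mafk, chr5:139791513-139791541, minus strand: tccccagtacTGACACCGCttccgggatc
Mafg, chr11:120633751-120633779, plus strand: ctcgccgggtTGACCGTGCtcctgcagag
Maff, chr15:79346499-79346527, plus strand: gggcgtctcaTGACTCTGCcactggaaag
The MARE letters TGCTGA, also searched on both strands, were found for Mafk, Bach1 and Nfe2l1, against 21.7% of all genes with a window. Counted by window, they lay in 5 of the 13, against 19.5% of all windows. The matching windows of Nfe2l1 overlap and hold the same sites, so they are not independent of each other. The AP-1 type site TGANTCA was found in none of the 13 windows of these genes and in 8.97% of all genes with a window. The 3 motifs can overlap, since all of them hold the letters TGA. Each match describes letters in a window and is not a shown binding site.

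Total counts were 6424874 to 9236153 per library, with 10242 to 12673 genes above 0. The 2 most abundant identifiers, 100861531 and 19791, have no name in the reference table and took 19.7% to 46.2% of a library together. All 9 listed T cell genes (such as Cd3e, Cd4 and Lck) were detected in all 18 libraries, as the CD4 T cell label asks. Of the marker lists for other cell types, Pax5, Lyz2, Ncr1 and Hbb-bs were at 0 in all 18 libraries, and Cd8a was above 0 in a single library. Other genes of the CD8, NK, gamma delta T and erythroid lists were present at low levels. Among them were Cd8b1 and Hba-a2 (each at 0 in 2 libraries), Crtam and Trdc (3), Klrk1 (6) and Klri2 (8). Their medians were 0.516 to 3.79 CPM, with at most 21.7 CPM in a library. Genes of the myeloid list had medians of 0 but were not all absent. Itgax reached 6.524 CPM (at 0 in 13 libraries), Cd14 6.838 CPM (15) and Cd68 6.028 CPM (15). Values below are CPM, which are counts scaled by the effective library size, and fold changes are edgeR log2 values ± SE. A gene was called where its p-value, adjusted over all genes tested by the Benjamini-Hochberg method, was under 0.05. The labels do not say whether the replicate numbers stand for animals, so the spread behind each p-value is that between samples and may be technical.

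Maf went against the genotype labels. In Tfh5 it stood at 319, 330.7 and 396.9 CPM in libraries labelled Cre-positive and at 0 in all 3 labelled Cre-negative. In Tfh1 it stood at 195.9, 207.2 and 260.1 CPM in libraries labelled Cre-positive, against 0, 0 and 2.03 CPM in those labelled Cre-negative. In TfhA it stood at 5.03, 8.07 and 22.8 CPM in libraries labelled Cre-positive, against 0, 0 and 0.27 CPM in those labelled Cre-negative. Every library labelled Cre-positive thus lay above every library labelled Cre-negative, whatever the treatment. Cre would be expected to lower a floxed gene, so each direction between genotype labels given here is one between labels and not between known genotypes. Which part of Maf is floxed is not given, so it is not known whether the counted 3′ ends lie within it.

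Counted over a group, Maf in Tfh5 was at least 2392-fold higher in libraries labelled Cre-positive (7644 counts) than in those labelled Cre-negative, where 0 counts were set to a floor of 3 over the group. In Tfh1 the ratio was 294-fold, from 4514 against 15 counts, and all 15 lay in replicate 5; without that library it was at least 927-fold. In TfhA it was 141.5-fold, from 247 against 2 counts, with a 95% counting interval of 38.8 to 1175; both of the 2 counts lay in replicate 2, and without that library the ratio was at least 68.6-fold. Copies made by PCR are not independent molecules, so such intervals and floors hold counting error alone. Maf was called higher under the Cre-positive label in Tfh5 (adjusted p = 0.000175), in Tfh1 (log2 8.21 ± 0.96, adjusted p = 0.00123) and in counts summed per replicate number over the 3 treatments (log2 9.54 ± 0.44, adjusted p = 5.81e-10). In TfhA the value was 7.01 ± 1.20 and was not called (adjusted p = 0.110). The labels did not overlap there, as was true of 13% of all genes. The genes called were 3.24% of all tested in Tfh5, 0.852% in Tfh1, 0% in TfhA and 1.68% in the summed counts. In TfhA, edgeR called no gene, 606 genes had an unadjusted p under 0.05, and DESeq2 called 18 genes, Maf among them (log2 7.26, adjusted p = 0.00609).

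Among libraries labelled Cre-positive the level of Maf followed the treatment. It averaged 349 ± 42.0 CPM in Tfh5, 221 ± 34.3 CPM in Tfh1 and 11.98 ± 9.52 CPM in TfhA (SD, n = 3 each). Tfh5 exceeded TfhA by 4.89 ± 0.77 (adjusted p = 0.00210), where 5.39% of genes were called. Tfh1 exceeded TfhA by 4.23 ± 0.74 (adjusted p = 0.00904), where 2.57% were called; without TfhA replicate 3 the value was 4.01 and the call was lost, at an adjusted p of 0.0772. These contrasts share the TfhA libraries. Tfh5 and Tfh1 did not overlap either, with the lowest Tfh5 library at 319 CPM and the highest Tfh1 library at 260.1 CPM. Their difference of 0.66 ± 0.64 was not called (adjusted p = 0.800), while 1.76% of all genes were called and 15.4% had groups that did not overlap. In order of level, the 3 groups labelled Cre-positive stood apart from each other and from the rest, while the 3 labelled Cre-negative overlapped. No contrast between treatments under the Cre-negative label was called for Maf, which had 17 counts in all 9 libraries together. In those contrasts 5.08% of all genes were called for Tfh5 over TfhA, 2.23% for Tfh1 over TfhA and 0.554% for Tfh5 over Tfh1. The genotype difference of Maf was not shown to differ between treatments, with adjusted p of 0.571 for Tfh5 against TfhA, 0.9999 for Tfh1 against TfhA and 0.546 for Tfh5 against Tfh1.

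**Figure D1:**
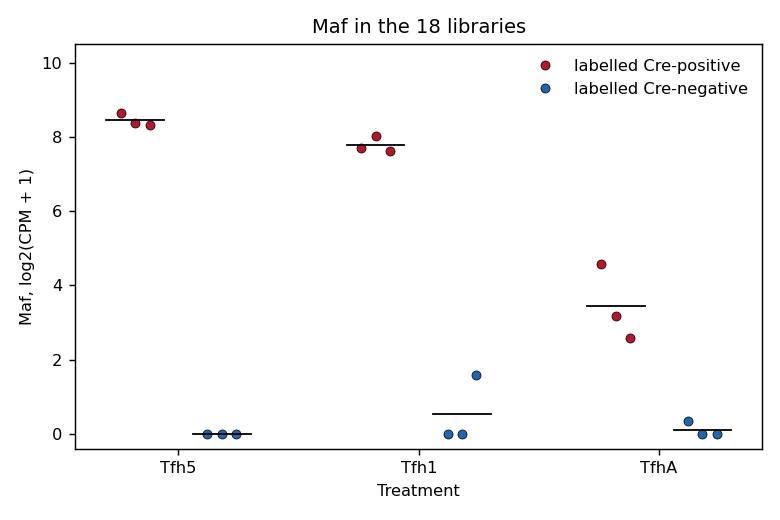
Maf in each of the 18 libraries, as log2(CPM + 1), by treatment, with libraries labelled Cre-positive on the left of each pair and those labelled Cre-negative on the right; bars are means of the plotted values. All libraries labelled Cre-positive (5.03 CPM or more) lie above all libraries labelled Cre-negative (2.03 CPM or less), and Tfh5, Tfh1 and TfhA separate under the Cre-positive label.

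The Maf gene lies on chromosome 8, minus strand, at 115703253-115706894 in RefSeq (GRCm38.p6). GENCODE M21 gives it 2 transcripts and carries its 3′ end 20311 bases further, to 115682942, and places the antisense gene Gm15655 across its start. The sources used here do not name the annotation behind the counting, and libraries that read transcript ends depend on it. Reads of Maf were whole counts in 13 of the 18 libraries and partly fractional in the other 5.

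Bach2 was the partner with the clearest separation between labels. In Tfh5 it stood at 150.1, 155.2 and 203.5 CPM in libraries labelled Cre-positive, against 69.6, 85.7 and 127 CPM in those labelled Cre-negative. The groups did not overlap, as was true of 16.6% of all genes in this comparison. The difference was 0.85 ± 0.28 (95% interval 0.28 to 1.42) with an unadjusted p of 0.00466 and an adjusted p of 0.101, and so was not called. Without Cre-negative replicate 4, which held the highest of the 3 values under that label, it was called at 1.12 (adjusted p = 0.0347), and over all other left-out libraries and alternatives the adjusted p was 0.0577 to 0.361. In Tfh1 Bach2 averaged 130 ± 34.2 CPM under the Cre-positive label and 117 ± 9.98 CPM under the Cre-negative label (0.15 ± 0.28, 95% interval -0.41 to 0.72). In TfhA it averaged 119 ± 42.9 CPM under the Cre-positive label and 106 ± 35.2 CPM under the Cre-negative label (0.17 ± 0.28, 95% interval -0.39 to 0.74). Neither was called, and the libraries overlapped in both. The difference in Tfh5 was not shown to exceed that in Tfh1 (0.70 ± 0.40, adjusted p = 0.676) or in TfhA (0.68 ± 0.40, adjusted p = 0.571).

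Summed over the treatments, Bach2 stood 0.44 ± 0.15 higher under the Cre-positive label with no overlap (adjusted p = 0.148), where 19.6% of all genes did not overlap. No contrast of Bach2 between treatments was called. Tfh5 stood 0.51 ± 0.28 above TfhA under the Cre-positive label (adjusted p = 0.340), and the value under the Cre-negative label was log2 -0.17 ± 0.28 (adjusted p = 0.890).

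B cells also express Bach2. Of 11 B cell genes, Ebf1 alone passed the filter, with a median of 10.2 CPM over the 18 libraries, and no other gene of that list had a median above 0. The summed level of the list in Tfh5 was 0.453 to 1.82 CPM under the Cre-positive label and 2.71 to 11.2 CPM under the Cre-negative label, most of it Ebf1, which was called lower (log2 -6.13 ± 1.20, adjusted p = 0.00156). The summed level of the 9 T cell genes in Tfh5 was 2607 to 3048 CPM under the Cre-positive label and 1936 to 2242 CPM under the Cre-negative label, and in Tfh1 2946 to 3408 CPM against 1848 to 2152 CPM. In TfhA it was 1748 to 2188 CPM under the Cre-positive label and 1718 to 1777 CPM under the Cre-negative label. Single genes of that list did not all move with its sum. In Tfh5, Cd4 (1.17 ± 0.23, adjusted p = 0.00129), Cd247 (1.01 ± 0.27, adjusted p = 0.0256) and Cd28 (0.72 ± 0.20, adjusted p = 0.0336) were called higher under the Cre-positive label and Thy1 was called lower (log2 -0.96 ± 0.22, adjusted p = 0.00741). In Tfh1, Cd3d (0.98 ± 0.19, adjusted p = 0.00369) and Cd28 (0.79 ± 0.20, adjusted p = 0.0434) were called higher. The part of these B cell and T cell genes in the differences of Bach2 was not tested. In bulk RNA, a change in the number of cells of a type and a change in RNA per cell cannot be told apart. Bach2 lies on chromosome 4, plus strand, at 32238413-32586109, and the antisense gene Bach2os inside it had 0 counts in every library.

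Bach1, the heme-regulated relative, was close to the detection limit, with 164 counts in 18 libraries. In Tfh5 it stood at 0.604, 1.94 and 8.57 CPM in libraries labelled Cre-positive, against 0.335, 1.17 and 2.42 CPM in those labelled Cre-negative. The highest value came from 66.5 counts in replicate 3, and the groups overlapped. In Tfh1 it stood at 0, 1.42 and 2.24 CPM in libraries labelled Cre-positive and at 0 in all 3 labelled Cre-negative. In TfhA it stood at 0, 0.183 and 2.75 CPM in libraries labelled Cre-positive and again at 0 in all 3 labelled Cre-negative. With 3 counts over the group as the floor, Bach1 under the Cre-positive label was at least 8.79-fold higher in Tfh1, and in TfhA at least 9.16-fold higher, although some libraries under that label were at 0 as well. Neither was called (adjusted p = 0.465 in Tfh1 and 0.938 in TfhA). Within the Cre-negative label Bach1 was counted in Tfh5 alone (28 counts), at least 12.3-fold above TfhA (adjusted p = 0.260) and at least 9.03-fold above Tfh1 (adjusted p = 0.461). Groups of 3 libraries at 0 counts allow a level of up to 3 counts, so Bach1 was not detectable there at this depth, which does not show it absent.

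The small Maf genes were low and none was called in any of the 13 comparisons. Mafg, the small Maf with the narrowest spread within groups (CV 19.2% to 35.5%), stood in Tfh5 at 23.4, 27.3 and 38.2 CPM in libraries labelled Cre-positive, against 13.7, 20.5 and 21.4 CPM in those labelled Cre-negative. These did not overlap, and the difference was 0.68 ± 0.50 (95% interval -0.33 to 1.68, adjusted p = 0.597). Mean Mafg was higher under the Cre-positive label in the other two treatments too, at 21.6 ± 7.67 against 15.6 ± 4.63 CPM in Tfh1 and 19.5 ± 3.74 against 15.0 ± 3.02 CPM in TfhA (SD, n = 3 each), with overlap in both. In the summed counts it stood 0.53 ± 0.26 higher with no overlap (adjusted p = 0.400). Mafg lies on chromosome 11, minus strand, at 120625117-120634955. In GENCODE its last 124 bases are shared with Sirt7 on the same strand, which reached 72.6 CPM, so reads at this shared end are uncertain.

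Mafk in Tfh5 ran the other way, at 1.42, 7.01 and 10.3 CPM in libraries labelled Cre-positive, against 12.3, 18.8 and 21.4 CPM in those labelled Cre-negative. The groups did not overlap, but the spread was wide, and the log2 difference of -1.49 ± 1.04 (95% interval -3.59 to 0.62) was not called (adjusted p = 0.563). Mean Mafk was 10.3 ± 8.06 CPM under the Cre-positive label and 6.64 ± 3.88 CPM under the Cre-negative label in Tfh1, and 5.17 ± 4.36 against 7.62 ± 5.88 CPM in TfhA, with overlap in both. Within the Cre-negative label Tfh5 lay above Tfh1 with no overlap (1.39 ± 1.03, adjusted p = 0.704), where 16% of all genes did not overlap. Mafk lies on chromosome 5, plus strand, at 139791536-139802653. Its last 169 bases lie opposite Tmem184a, which had 0 counts in every library.

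Maff had its widest spreads under the Cre-negative label in Tfh5 and Tfh1, but not in TfhA. In Tfh5 it stood at 8.31, 9.17 and 12.7 CPM in libraries labelled Cre-positive, against 3.71, 15.2 and 28.9 CPM in those labelled Cre-negative. In Tfh1 it stood at 9.02, 9.77 and 16.03 CPM under the Cre-positive label, against 5.45, 23.1 and 26.1 CPM under the Cre-negative label. In TfhA it stood at 5.85, 12.3 and 12.6 CPM under the Cre-positive label, against 3.78, 6.39 and 6.75 CPM under the Cre-negative label. All 3 pairs of groups overlapped. The contrast with the smallest p for Maff was Tfh1 over TfhA under the Cre-negative label, at 1.69 ± 0.78 with an unadjusted p of 0.0370 and an adjusted p of 0.372. Maff lies on chromosome 15, plus strand, at 79346621-79359078, and no other annotated gene overlaps it.

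Nfe2l1, the gene of the proteasome activator NRF1, was lower under the Cre-positive label in Tfh1 without overlap. It stood at 12.8, 16.3 and 17.3 CPM in libraries labelled Cre-positive, against 23.4, 30.2 and 39.7 CPM in those labelled Cre-negative. The log2 difference was -1.01 ± 0.47 (95% interval -1.97 to -0.05) with an unadjusted p of 0.0399 and an adjusted p of 0.464, in a comparison where 16.3% of all genes did not overlap. In Tfh5 the means were 21.5 ± 12.9 CPM under the Cre-positive label and 21.2 ± 4.57 CPM under the Cre-negative label, and in TfhA 27.7 ± 1.598 against 29.6 ± 11.2 CPM. Tfh1 also lay below TfhA without overlap under the Cre-positive label (log2 -0.84 ± 0.47, adjusted p = 0.428), where 18.8% of all genes did not overlap. Nfe2l1 lies on chromosome 11, minus strand, at 96817414-96829968.

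Nfe2l2, the gene of NRF2, had the narrowest range of group means among the partners above the detection limit, from 15.2 to 23.4 CPM. In Tfh5 it stood at 10.9, 24.5 and 28.2 CPM in libraries labelled Cre-positive, against 14.1, 15.3 and 19.2 CPM in those labelled Cre-negative. In Tfh1 it stood at 9.45, 19.6 and 24.8 CPM under the Cre-positive label, against 21, 22.8 and 26.2 CPM under the Cre-negative label. In TfhA it stood at 10.9, 12.3 and 23.4 CPM under the Cre-positive label, against 8.23, 13.3 and 24.2 CPM under the Cre-negative label. The label groups overlapped in all 3 treatments, and the log2 differences were 0.39, -0.38 and 0.02 with an SE of 0.56 each. The intervals, such as -0.75 to 1.52 in Tfh5, leave room for changes over 2-fold. Nfe2l2 lies on chromosome 2, minus strand, at 75675513-75704663.

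**Figure D2:**
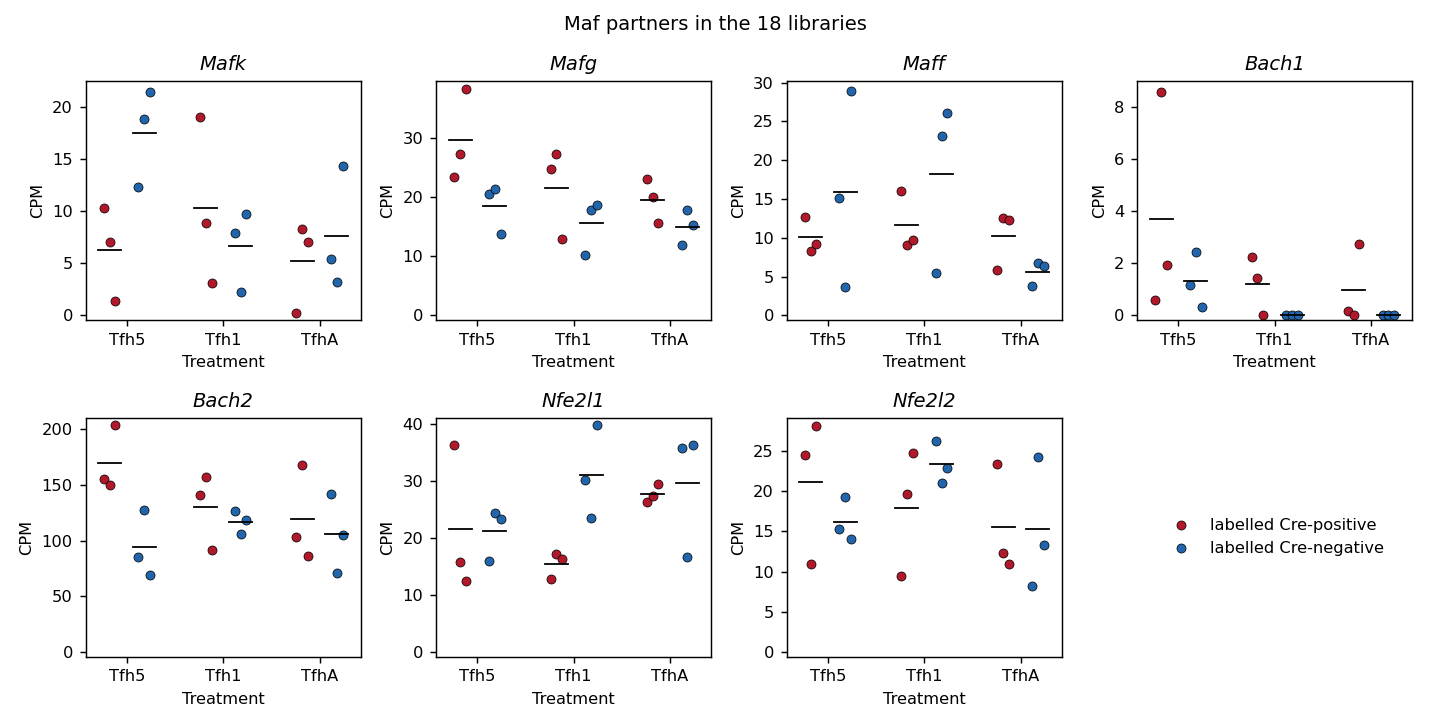
CPM of the 7 partners in each of the 18 libraries, by treatment, with libraries labelled Cre-positive on the left of each pair and those labelled Cre-negative on the right; bars are group means. In Tfh5 the labels do not overlap for Mafk, Mafg and Bach2, and Bach1 is at 0 in all libraries labelled Cre-negative in Tfh1 and TfhA.

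**Figure D3:**
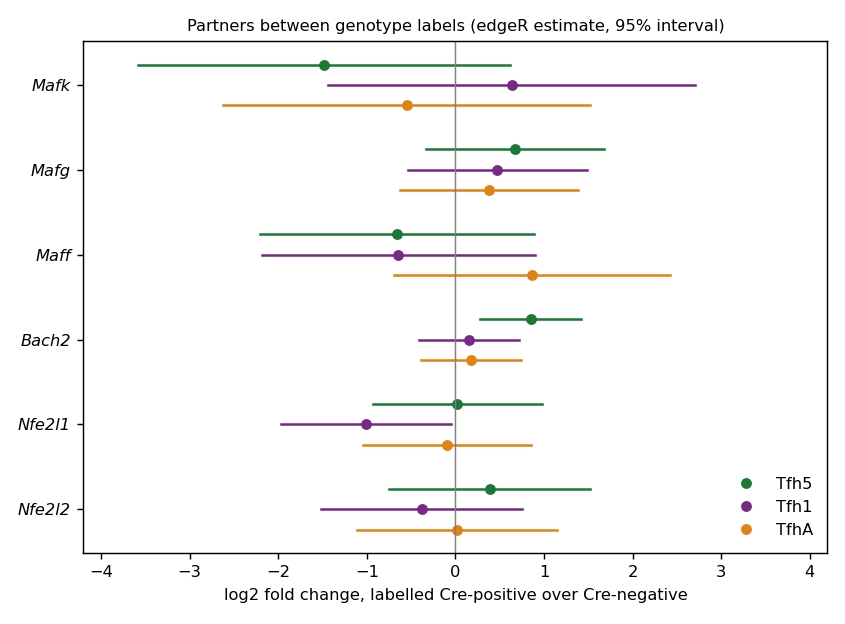
Log2 fold change of 6 partners, libraries labelled Cre-positive over those labelled Cre-negative, in each treatment, with edgeR estimates as points and 95% intervals as lines. Maf and Bach1 are not drawn because some of their values have no bound. Under the Cre-negative label Maf was at 0 in Tfh5, and Bach1 was at 0 in Tfh1 and TfhA. None of the 18 values shown was called, and the interval of Bach2 in Tfh5 runs from 0.28 to 1.42.

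**Figure D4:**
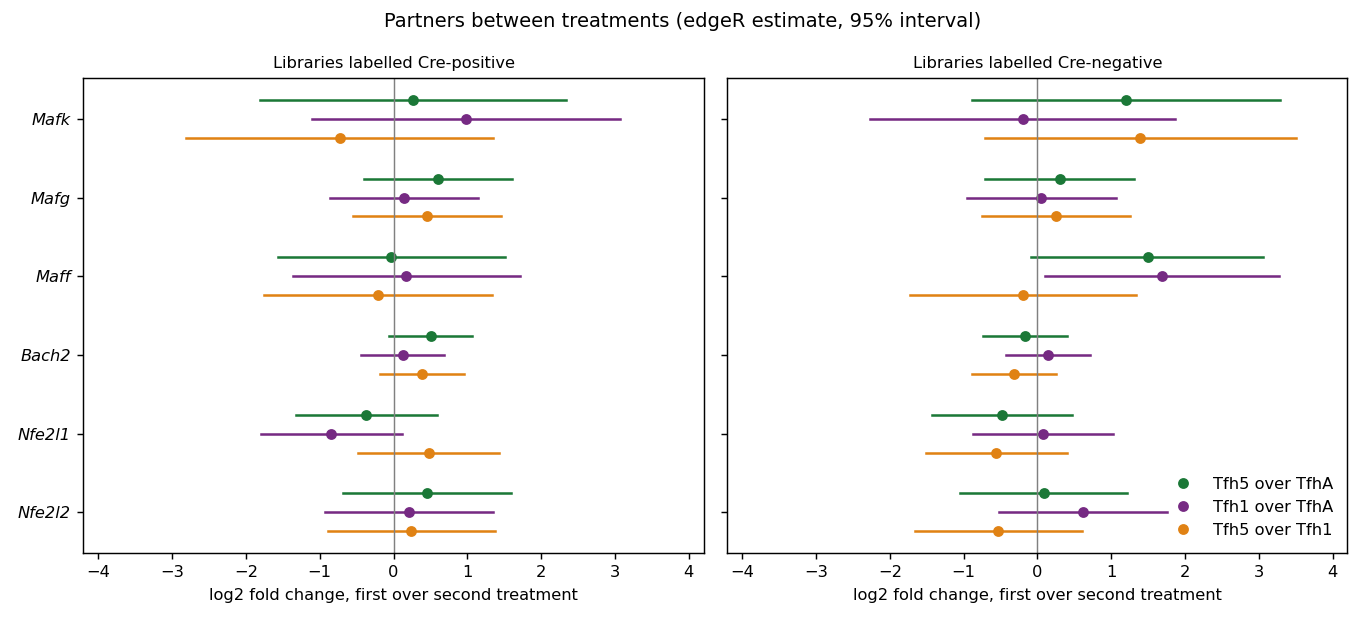
Log2 fold change of the same 6 partners between treatments, first-named over second-named, within libraries labelled Cre-positive (left) and Cre-negative (right), with edgeR estimates as points and 95% intervals as lines. None of these values was called, and contrasts within a panel share libraries.

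Over the 13 comparisons, 5 of the 104 tests on these 8 genes were called, all 5 for Maf. The smallest adjusted p of the 91 tests on the 7 partners was 0.101, for Bach2 in Tfh5, and 8 of those 91 had an unadjusted p under 0.05. Among all 11735 genes tested, 606 to 2120 had an unadjusted p under 0.05, depending on the comparison. The 8 include tests of Bach1 against groups at 0, and comparisons share libraries. In the contrasts between 2 groups, partners did not overlap in 13 of 70 cases, where 13% to 24.7% of all genes did not, depending on the contrast. In Tfh5 between labels, 3 of 7 partners did not overlap beside 16.6% of all genes, and in Tfh1 between labels 1 of 7 beside 16.3%. For Tfh5 over TfhA, 1 of 7 did not overlap under either label (Mafg under Cre-positive and Bach1 under Cre-negative), where 21.4% and 24.7% of all genes did not. For Tfh1 over TfhA under the Cre-negative label it was 0 of 7, where 22.6% of all genes did not. The difference between the genotype effects of 2 treatments was called for none of the 8 genes, while 1.19% of all genes were called for Tfh5 against TfhA, 0.239% for Tfh1 against TfhA and 0.0597% for Tfh5 against Tfh1.

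Across the 18 libraries, the genes whose log2 CPM was most like that of Maf were Zap70 (Pearson r = 0.928), Shisa5 (0.914) and Plekho1 (0.873). Most like Bach2 were Zfp628 (0.803), Parvg (0.771) and Vps52 (0.756). Most like Mafg were Myo3b (0.803), Sec14l1 (0.787) and Pdcd1 (0.770), and most like Mafk were Nfatc2ip (0.818) and Smpd1 (0.796). For Maff they were B4galt2 (0.719), Far1 (0.718) and Gmppb (0.710), and for Bach1 they were Prss12 (0.808) and Sumo3 (0.769). For Nfe2l1 they were Nlgn2 (0.769), Plk1 (0.750) and Per1 (0.746), and for Nfe2l2 they were Myo1f (0.767), Zfp472 (0.748) and Cip2a (0.725). These are among the highest of 11735 genes over 18 libraries that share 6 groups, and are given as descriptions. Among the 8 genes themselves, Maf and Mafg had r = 0.620, and 0.297 once group means were removed; Maf and Bach2 had 0.571, and 0.162 within groups. Mafk and Nfe2l2 ran opposite at -0.440, and at -0.588 within groups.

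Other genes of the family were hardly present. Mafa, Nrl, Nfe2 and Nfe2l3 failed the filter, with 31 counts at most (Nfe2, above 0 in 2 libraries). Of 13 genes that control CNC proteins, 12 were tested and none was called between labels in any treatment. Keap1, the adaptor that sends NRF2 to degradation, averaged 55.0 ± 19.8 CPM under the Cre-positive label and 61.0 ± 16.1 CPM under the Cre-negative label in Tfh5 (log2 -0.15 ± 0.31, adjusted p = 0.929). Sqstm1, the autophagy receptor that binds KEAP1, was the 1 gene of this list called between treatments, higher in Tfh5 (109 ± 17.5 CPM) than in TfhA (53.8 ± 8.80 CPM) under the Cre-negative label (1.01 ± 0.28, adjusted p = 0.0246). In that contrast 3.17% of all genes were called higher.

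Of 30 listed NRF2 target genes, 22 were tested. Between labels in Tfh5, 0 rose and 3 fell, beside 1.19% of all genes higher and 2.05% lower. Fth1, the ferritin heavy chain that stores iron, averaged 614 ± 197 CPM under the Cre-positive label and 1183 ± 150 CPM under the Cre-negative label (log2 -0.95 ± 0.19, adjusted p = 0.00174). Tkt, the transketolase of the pentose phosphate pathway, averaged 184 ± 37.5 CPM under the Cre-positive label and 362 ± 86.6 CPM under the Cre-negative label (log2 -0.98 ± 0.21, adjusted p = 0.00517). Abcc1, a glutathione conjugate exporter, averaged 0.259 ± 0.224 CPM under the Cre-positive label and 12.9 ± 7.38 CPM under the Cre-negative label (adjusted p = 0.000292). The list's median log2 change was -0.09, beside 0 over all genes. None of the 22 was called between labels in Tfh1, in TfhA or in the summed counts.

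Fth1 was higher in Tfh5 and in Tfh1 than in TfhA under both labels, by 1.09 ± 0.19 and 1.25 ± 0.19 under the Cre-positive label and by 1.85 ± 0.19 and 1.08 ± 0.19 under the Cre-negative label, with adjusted p of 0.000508 at most. Prdx1, a peroxidase, was higher in Tfh5 than in TfhA under the Cre-positive label (0.78 ± 0.20, adjusted p = 0.0125), and Abcc1 was lower there (adjusted p = 7.05e-05). Gsr, glutathione reductase, was lower in Tfh5 than in TfhA under the Cre-negative label (log2 -2.91 ± 0.82, adjusted p = 0.0258). Some NRF2 and BACH1 targets were near the detection limit. Hmox1, the heme oxygenase, averaged 0.841 ± 0.735 CPM under the Cre-positive label and 3.43 ± 2.85 CPM under the Cre-negative label in Tfh5 (adjusted p = 0.840), and Gclm averaged 1.47 ± 2.55 against 1.56 ± 2.69 CPM. Nqo1, Slc7a11 and Prdm1 did not pass the filter on low counts.

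Of 32 listed proteasome genes, which NRF1 is known to drive, 31 were tested. Between labels 1 was called, the assembly factor gene Pomp, lower in Tfh5 at 531 ± 68.4 CPM under the Cre-positive label against 825 ± 187 CPM under the Cre-negative label (log2 -0.64 ± 0.18, adjusted p = 0.0442). This was 1 of 31 in Tfh5, where 3.24% of all genes were called and 2.05% were lower. The list's median between labels was -0.22 in Tfh5, -0.25 in Tfh1 and -0.16 in TfhA, beside 0, -0.02 and 0 over all genes, and 8, 6 and 7 of 31 had a positive log2 value. The list's median was below that of all genes in all 3 treatments. Nfe2l1 was not called between labels in any treatment, and its groups overlapped in Tfh5 and TfhA but not in Tfh1. A link between Nfe2l1 and the proteasome genes was not tested. For Tfh5 over TfhA under the Cre-negative label, 4 rose and 0 fell, among them Psmb1 (0.87 ± 0.18), Psmd4 (0.78 ± 0.21) and Psmd13 (0.75 ± 0.22), with adjusted p of 0.0374 at most, where 3.17% of all genes were higher. Psmc5 alone was called for Tfh5 over TfhA under the Cre-positive label (0.98 ± 0.28, adjusted p = 0.0263), where 2.39% of all genes were higher. Psmd8 rose in Tfh1 over TfhA under the Cre-negative label (0.75 ± 0.20, adjusted p = 0.0317), where 1.5% of all genes were higher.

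Of 17 genes of heme and iron handling, 14 were tested. Tfrc, the transferrin receptor, averaged 116 ± 35.1 CPM under the Cre-positive label and 325 ± 18.8 CPM under the Cre-negative label in Tfh5 (log2 -1.48 ± 0.21, adjusted p = 1.87e-05). In Tfh1 it averaged 157 ± 29.6 CPM under the Cre-positive label and 388 ± 49.1 CPM under the Cre-negative label (log2 -1.31 ± 0.21, adjusted p = 0.000381). Tfrc and Fth1, which also stands on the NRF2 list, were the 2 genes of this list called between labels in Tfh5, and Tfrc the only one in Tfh1 and in the summed counts (log2 -0.61 ± 0.15, adjusted p = 0.0475). Of all genes, 3.24% were called in Tfh5, 0.852% in Tfh1 and 1.68% in the summed counts. Tfrc was lower in Tfh5 and in Tfh1 than in TfhA under the Cre-positive label (log2 -1.98 ± 0.22 and -1.55 ± 0.21, adjusted p of 8.87e-06 at most). Cpox, a heme synthesis enzyme, was higher in Tfh5 and in Tfh1 than in TfhA under both labels, by 1.71 to 2.20, with adjusted p of 0.00049 at most.

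Of 15 listed genes that BACH2 is known to repress, 7 were tested. S100a6 was the 1 called between labels, at 61.4 ± 18.9 CPM under the Cre-positive label against 407 ± 34.1 CPM under the Cre-negative label in Tfh5 (log2 -2.73 ± 0.21, adjusted p = 1.68e-11). In Tfh1 it averaged 80.9 ± 13.2 CPM under the Cre-positive label and 303 ± 11.4 CPM under the Cre-negative label (log2 -1.91 ± 0.20, adjusted p = 1.54e-07). Of all genes, 2.05% were called lower between labels in Tfh5 and 0.341% in Tfh1. In Tfh5 over TfhA, 1 of 7 rose and 3 fell under the Cre-positive label, beside 2.39% of all genes higher and 3% lower, and 1 rose and 2 fell under the Cre-negative label, beside 3.17% higher and 1.91% lower. S100a6 and Tbx21, the gene of the Th1 regulator T-bet, were lower in Tfh5 than in TfhA under the Cre-positive label, Tbx21 at 1.99 ± 2.01 against 45.1 ± 16.5 CPM (adjusted p = 0.00829). Gzmb, the granzyme B gene, was at 0 in all 3 Tfh1 libraries labelled Cre-positive, at least 830-fold below their TfhA counterparts at 122 ± 68.3 CPM (adjusted p = 0.0130). Under the Cre-negative label the 2 that fell in Tfh5 over TfhA were S100a6 (log2 -1.76 ± 0.20, adjusted p = 6.83e-08) and Gzmb. There Gzmb averaged 0.216 ± 0.374 CPM in Tfh5 against 101.6 ± 26.8 CPM in TfhA (adjusted p = 0.01325). Tbx21 averaged 8.20 ± 6.45 against 61.85 ± 8.87 CPM under that label and was not called. Il10, on this list and on that of c-Maf, ran the other way and was higher in Tfh5 than in TfhA, by 64.2-fold from 179 against 3 counts under the Cre-positive label (95% counting interval 21.6 to 314) and by 106-fold from 486 against 6 counts under the Cre-negative label.

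Of 15 listed c-Maf targets, 10 were tested, and 1 rose and 1 fell between labels in each of Tfh5 and Tfh1. Of all genes, 1.19% were higher and 2.05% lower in Tfh5, and 0.511% were higher and 0.341% lower in Tfh1. Icos, the costimulatory receptor gene, averaged 116 ± 21.2 CPM under the Cre-positive label and 54.0 ± 7.46 CPM under the Cre-negative label in Tfh5 (1.10 ± 0.24, adjusted p = 0.00562). In Tfh1 it averaged 152 ± 26.6 CPM under the Cre-positive label and 74.2 ± 23.3 CPM under the Cre-negative label (1.04 ± 0.24, adjusted p = 0.0232). Il2ra, the IL-2 receptor alpha chain, averaged 239 ± 23.8 CPM under the Cre-positive label and 764 ± 115 CPM under the Cre-negative label in Tfh5 (log2 -1.67 ± 0.18, adjusted p = 9.97e-08), and was lower in Tfh1 too (log2 -1.24 ± 0.18, adjusted p = 9.16e-05).

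In the contrasts with TfhA, 4 to 7 of the 10 genes of the c-Maf list were called, and in Tfh5 over Tfh1 1 was called under the Cre-positive label and 0 under the Cre-negative label. Under the Cre-positive label 5 of 10 rose and 1 fell in Tfh5 over TfhA, where 2.39% of all genes were higher and 3% lower. Under the Cre-negative label 6 of 10 rose and 1 fell, where 3.17% of all genes were higher and 1.91% lower. Maf had 0 counts in Tfh5 and 2 in TfhA under that label. The part of Maf in the changes of these genes was not tested. Il17a averaged 147 ± 15.9 CPM in Tfh5 against 7.64 ± 2.20 CPM in TfhA under the Cre-positive label, and 165 ± 38.6 against 6.20 ± 1.30 CPM under the Cre-negative label. Il21 in Tfh1 averaged 229 ± 27.4 CPM against 58.8 ± 20.5 CPM in TfhA under the Cre-positive label (1.96 ± 0.29), and 135 ± 31.9 against 43.6 ± 14.6 CPM under the Cre-negative label (1.62 ± 0.29). Ikzf3, the gene of the Aiolos factor, averaged 67.7 ± 30.0 CPM in Tfh5 and was at 0 in all 3 TfhA libraries under the Cre-positive label, at least 540-fold apart. Icos was the gene that fell, by log2 -1.30 ± 0.24 under the Cre-positive label and -2.18 ± 0.25 under the Cre-negative label. These lists were chosen with earlier results of these data known. They were described by counts, and no list was tested as a whole.

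**Figure D5:**
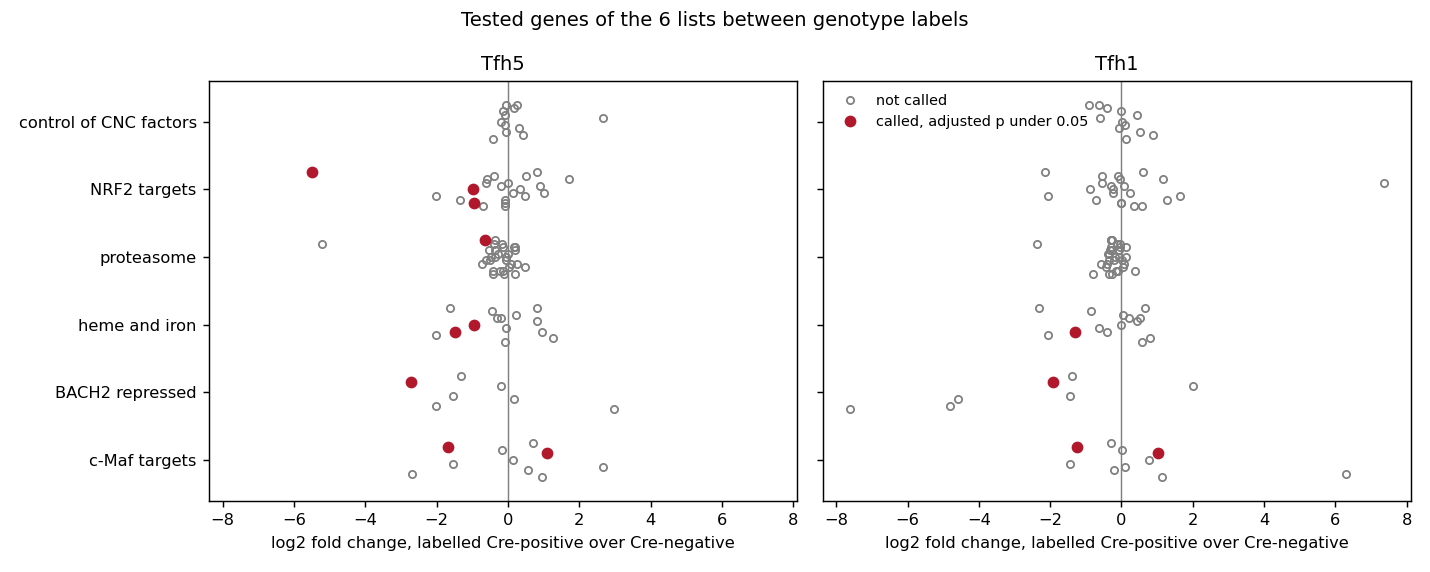
Log2 fold change of each tested gene of 6 lists, libraries labelled Cre-positive over those labelled Cre-negative, in Tfh5 (left) and Tfh1 (right); filled points were called and open points were not. Values of genes with a group at 0 depend on edgeR's prior count and are no bounds, and the called genes are Abcc1, Fth1, Tkt, Pomp, Tfrc, S100a6, Il2ra and Icos.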

How the data were processed

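Libraries were made from 50 ng of RNA with a Lexogen 3′ kit, which reads transcript ends, per the labels' protocols. The deposited files hold expected counts per gene, without normalization, and the authors' tools were STAR 2.7.2b for mapping and featureCounts 1.6.4 for counting, on mm10, per the submitters' processing notes. Between 11.7% and 18.1% of values per library are not whole. The sources used here do not give how reads were divided, the annotation or the use of strand, so overlapping and antisense genes are uncertain. Tests had been planned for whole counts, and the values were rounded.

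Identifiers were named through a RefSeq table of GRCm38.p6 (25275 of 27179). edgeR 4.0.16 in R 4.3.3 was used with TMM factors (0.830 to 1.389), filterByExpr and a quasi-likelihood fit, made robust and with a mean for each of the 6 groups, on all 18 libraries. This left 11735 genes, and 11693 for counts summed per replicate number. The SE was worked back from the F statistic. A scaled CPM was the rounded count per effective library size, and correlations used log2 CPM with a prior count of 2. The test was checked on simulated data. The members and lists were chosen with earlier results of these data known. Named genes were the 8 members, the 3 genes most like each, up to 3 called genes of each list by adjusted p, 6 genes fixed by name and the 2 top identifiers; a few of these and of the listed genes are not reported here. Genes of the marker lists were named after their values were seen. Alternatives were DESeq2 1.42.0, its size factors, no filter, other sets of libraries, a replicate block and omission of the 2 top identifiers. 0 columns of per-sample values were left unused.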

Additional observations from a re-analysis of the deposited data

Results flagged for a closer look

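The effect of the genotype label differed between treatments, by edgeR's interaction test, for 6 listed genes and for none of the 8 members. Of all genes tested, 1.19% were called for Tfh5 against TfhA and 0.239% for Tfh1 against TfhA. All values are the difference labelled Cre-positive minus labelled Cre-negative in the first treatment minus that in TfhA, in log2, and all rest on labels that Maf goes against. S100a6 had -2.53 ± 0.28 for Tfh5 (adjusted p = 2.40e-07) and -1.71 ± 0.27 for Tfh1 (adjusted p = 0.000905). Il2ra had -1.68 ± 0.25 for Tfh5 (adjusted p = 8.37e-05) and -1.24 ± 0.25 for Tfh1 (adjusted p = 0.0139). Tfrc had -1.54 ± 0.30 for Tfh5 (adjusted p = 0.00254) and -1.37 ± 0.29 for Tfh1 (adjusted p = 0.0234). Abcc1 had -5.03 ± 1.15 for Tfh5 (adjusted p = 0.0163), with 0.259 ± 0.224 CPM labelled Cre-positive in Tfh5. Ikzf3 had 7.21 ± 1.51 for Tfh5 (adjusted p = 0.00847) and 7.42 ± 1.51 for Tfh1 (adjusted p = 0.0156), and both depend on the prior count because Ikzf3 was at 0 in TfhA labelled Cre-positive. Ebf1, of the B cell list, had -5.91 ± 1.46 for Tfh5 (adjusted p = 0.0306) and -10.00 ± 1.77 for Tfh1 (adjusted p = 0.00338), which likewise depends on the prior count because Ebf1 was at 0 in Tfh1 labelled Cre-positive.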

How the results depend on the processing

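Of 582 values of the 8 members under the alternatives, 576 kept their side of the threshold, 6 became called and 0 lost a call; none that was called changed sign, and 6 uncalled values did. The 6 values that became called were all of Maf. They included TfhA between labels under DESeq2 (1 member called) and with no filter (1). With no filter they were also Tfh1 over TfhA and Tfh5 over Tfh1 labelled Cre-negative (1 each). The others were the genotype differences of Tfh5 against TfhA and against Tfh1, also with no filter (1 each). Leaving out 1 library changed 2 of 768 values, Bach2 in Tfh5 and Maf in Tfh1 over TfhA, as given above.

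Counts of called genes between labels, beside 380 in Tfh5, 100 in Tfh1, 0 in TfhA and 197 summed, were 80 in Tfh5 with only the groups compared, 238, 18 and 520 in Tfh1, TfhA and the sums under DESeq2, and 168, 23 and 455 with no filter. DESeq2 size factors gave 1 in TfhA, and the mean of the 3 differences gave 412. Under the Cre-positive label, DESeq2 gave 560 for Tfh1 over TfhA (main 302) and 384 for Tfh5 over Tfh1 (206), which was 314 with no filter and 115 with only its groups. Under the Cre-negative label, DESeq2 gave 414 for Tfh1 over TfhA (262) and 190 for Tfh5 over Tfh1 (65), no filter 232 for the last, and only the groups compared 566 and 28. For the differences of genotype effects in Tfh5 against TfhA (140), Tfh1 against TfhA (28) and Tfh5 against Tfh1 (7), DESeq2 gave 234, 61 and 52, no filter 235, 61 and 45, and only the groups compared 88, 64 and 3. The cause of these shifts was not tested.

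Without 1 library, called genes ran from 258 to 387 in Tfh5, 51 to 99 in Tfh1, 0 to 4 in TfhA and 94 to 166 summed. Under the Cre-positive label they ran from 448 to 543 for Tfh5 over TfhA, 170 to 282 for Tfh1 over TfhA and 145 to 192 for Tfh5 over Tfh1; under the Cre-negative label from 360 to 555, 129 to 202 and 25 to 94. The genotype differences gave 81 to 164, 18 to 27 and 5 to 21. Called members ran from 1 to 2 in Tfh5 and 0 to 1 in Tfh1 over TfhA labelled Cre-positive, and were 1 in Tfh1, in the sums and in Tfh5 over TfhA labelled Cre-positive, and 0 elsewhere.

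Deviations of same-numbered libraries from their group means had r of -0.0373 to 0.0662 (18 pairs, none over 0.1, 9 of 18 best with their own number). With 3 libraries per group and all genes weighed alike, these values cannot show whether same-numbered libraries share a source. With the replicate block, 16 genes were called in place of 7 for the genotype difference of Tfh5 against Tfh1, other counts stayed within 1.5 times, and no call of a member changed. Genotype labels share no number, so no block could be fitted between them.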
